A study of Saccharomyces cerevisiae with 3 samples.

Results

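The genes described here carry a canonical TATA box in their core promoter and are absent from 6 lists of bound factors and other features. Absence from these lists does not show that no factor binds. They were taken from the study's gene lists as the genes in the TATA list that were in none of 6 other lists (bound by Abf1, Rap1 or Reb1, ribosomal protein genes, an asymmetric −1 nucleosome, or highly transcribed) and that had exactly 1 listed transcription start site (TSS). Of 922 TATA genes, 455 were in none of the 6 lists, and 186 of these had exactly 1 TSS among the 1999 rows of the TSS table used here. The others had no TSS in these rows (266 genes) or more than 1 (3 genes). The 186 genes lay on all 16 chromosomes and were part of 1971 genes with exactly 1 TSS. Another 502 genes with a TATA-like element were chosen with the same exclusions and served for comparison, as did 193 TATA genes that were in at least 1 of the 6 lists.

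The chromatin came from *dst1∆* cells, a derivative of the haploid laboratory strain BY4741 of budding yeast (*MATa his3∆1 leu2∆0 met15∆0 ura3∆0*) that lacks the gene for the elongation factor TFIIS, in 2 replicates. The reference was 1 library of naked DNA from wild-type BY4741 cells, from which the proteins had been removed before digestion. Cells grew in rich glucose medium (YPD), the chromatin was fixed with formaldehyde, micrococcal nuclease (MNase) digested the samples only in part, and the DNA of the mononucleosome band was sequenced as single reads. Wild-type chromatin was not analysed here, so no value below is an effect of the deletion. The labels do not say whether the replicates came from separate cultures, so their spread may be technical.

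A TATA box binds the TATA-binding protein, around which the transcription machinery assembles. In budding yeast, TATA genes are known for responses to stress, nutrients and other signals, and their expression varies widely between conditions. Most yeast promoters hold a nucleosome-depleted region (NDR) upstream of the TSS, flanked by the −1 nucleosome on its far side and the +1 nucleosome at the start of the gene, and TATA promoters are known to be covered by nucleosomes more often. MNase cuts linker DNA first, but it also prefers some sequences, so naked DNA shows where fragments of nucleosomal size arise without histones. Fragile −1 nucleosomes are those lost at a stronger digestion.

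The *dst1∆* replicates held 10776646 and 9049024 reads (32.2-fold and 34.6-fold coverage) and the naked DNA held 16618987 (49.7-fold). The longest stretch without a read in both *dst1∆* replicates, where the naked DNA had 631 reads, was 531 bp long on chromosome VII, the chromosome of *DST1*. The next longest was 205 bp. Values below are the mean signal in a window at a genome mean of 100, with at most 9, 9 and 11 reads counted per strand position. The median of the 186 genes rested on 9.5 and 4 fragments in the *dst1∆* replicates and 28 in naked DNA in the NDR window, from 120 to 20 bp upstream of the TSS. It rested on 70.5, 70 and 82.5 fragments in the window of the −1 nucleosome, from 250 to 50 bp upstream, which overlaps the NDR window. The libraries stood apart in a way that the groups do not explain. Across the 186 genes, the log2 signal of the −1 window in replicate 1 correlated with that of naked DNA (Pearson's r = 0.65) about as well as with that of replicate 2 (r = 0.63), whereas replicate 2 correlated with naked DNA at r = 0.30. Genes are not independent replicates and share the library and the sequence, so these values are descriptions. Replicate 1 and naked DNA were sequenced on the same kind of instrument (reads of 36 bp) and replicate 2 on another (nearly all reads spanning 46 bp), so that replicate and sequencing cannot be told apart. Values are therefore given for each replicate.

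The NDR of these TATA genes was more covered than that of TATA-like genes in *dst1∆* chromatin. Its median signal was 21.4 in replicate 1 and 13.5 in replicate 2, against 10.0 and 6.30 in TATA-like genes and 11.8 and 7.07 in all genes. On the log2(signal + 10) scale, TATA genes were above TATA-like genes by 0.65 and 0.53 (0.59 ± 0.09, SD, n = 2), a difference larger than the spread between the replicates. Of the 186 genes, 121 (65.1%) and 123 (66.1%) were above the median of all genes. Naked DNA showed a smaller difference in the same direction, with a median of 34.0 in TATA genes, against 25.5 in TATA-like genes (0.31 on the log2 scale), and 108 of the 186 genes (58.1%) above the median of all genes. TATA genes with a listed factor had NDR medians of 30.0 and 20.1 in *dst1∆* and 34.4 in naked DNA. The genes without a listed factor differed from these by −0.35 and −0.36 on the log2 scale in *dst1∆*. Genes of 1 library are not replicates, and no test was made between groups of genes. In a population of cells, a nucleosome present in fewer cells cannot be told apart from one that is less protected in each.

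**Figure D1:**
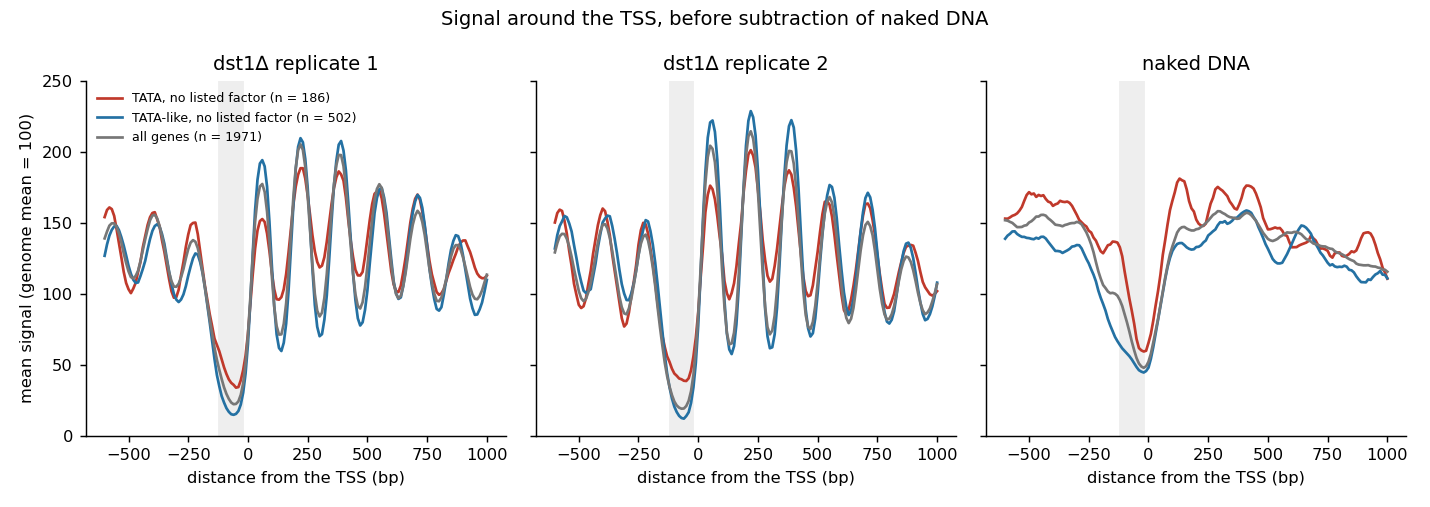
Mean signal (genome mean of 100) against the distance from the TSS in bp, for 186 TATA genes without a listed factor, 502 TATA-like genes without a listed factor and all 1971 genes, in both *dst1∆* replicates and naked DNA. The shaded NDR window was shallower in the TATA genes in both replicates (minimum of 36.3 and 39.9, against 16.2 and 13.9 in TATA-like genes) and in naked DNA (61.9 against 46.1).

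The same difference was seen in nucleosomes called after the naked DNA had been subtracted. A nucleosome was centred in the NDR window of 40 (21.5%) of the TATA genes in replicate 1 and 34 (18.3%) in replicate 2, against 5.98% and 5.78% of the TATA-like genes. It was called in both replicates in 28 TATA genes (15.1%), against 4.38% of TATA-like genes and 6.49% of all genes. The shares were near those of TATA genes with a listed factor, of which 18.7% and 21.8% had one, and 14.5% in both replicates. These 28 genes included *GAL1*, *GAL2* and *GAL7* of galactose use (*GAL1* and *GAL7* as listed share 1 intergenic region), the hexose transporter gene *HXT4*, the repressor gene *MIG2*, the glycogen branching enzyme gene *GLC3*, the lactate dehydrogenase gene *CYB2*, the peroxisomal thiolase gene *POT1*, and the stress genes *HSP30*, *GRE1* and *RTC3*. These named genes all come from the role groups described below, and they were picked as examples after their values were seen. Others of the 28, such as *YAL037W* and *BOI1*, were in no role group. The share of role genes among the 28 was not compared with that among all the TATA genes. Of the 28 genes, 4 had a −1 nucleosome listed as fragile and 12 one listed as stable, and 12 were in neither list. The +1 nucleosome, sought in the first 150 bp of the gene, was called less often in TATA genes, in 79.0% and 74.7% of them, against 92.8% and 85.7% of TATA-like genes and 88.3% and 81.9% of all genes. TATA genes with a listed factor had it in 75.6% and 72.0%. The shares depended on the subtraction. With the replicates pooled, the +1 was called in 78.5% of TATA genes and 91.0% of TATA-like genes. Without subtraction it was called in 88.7% of TATA genes, against 96.8% of TATA-like genes and 93.5% of all genes. Signal in the NDR was above that of the +1 window in 30 (16.1%) and 26 (14.0%) of the TATA genes, against 4.98% of TATA-like genes in each replicate and 8.27% and 8.12% of all genes.

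The median level differed between classes of genes by the sites listed upstream, and these differences were not tested. In the 66 TATA genes with no other listed TSS or polyadenylation site within 500 bp upstream, the median NDR signal was 42.9 and 41.7 in *dst1∆* and 47.1 in naked DNA. All 610 such genes had 20.7 and 13.6 in *dst1∆* and 29.5 in naked DNA. In the 41 TATA genes with another TSS upstream, it was 11.3 and 7.27 in *dst1∆* and 34.0 in naked DNA, against 8.95, 5.25 and 27.5 in all 690 such genes. In the 79 TATA genes with a polyadenylation site but no TSS upstream, it was 16.2 and 9.97 in *dst1∆* and 27.0 in naked DNA, against 9.90, 6.35 and 26.9 in all 671 such genes. In *dst1∆* the TATA genes had the higher median in all 3 classes. Sites in the rows not used here are not counted, so some of the 66 genes can have an unlisted neighbour.

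**Figure D2:**
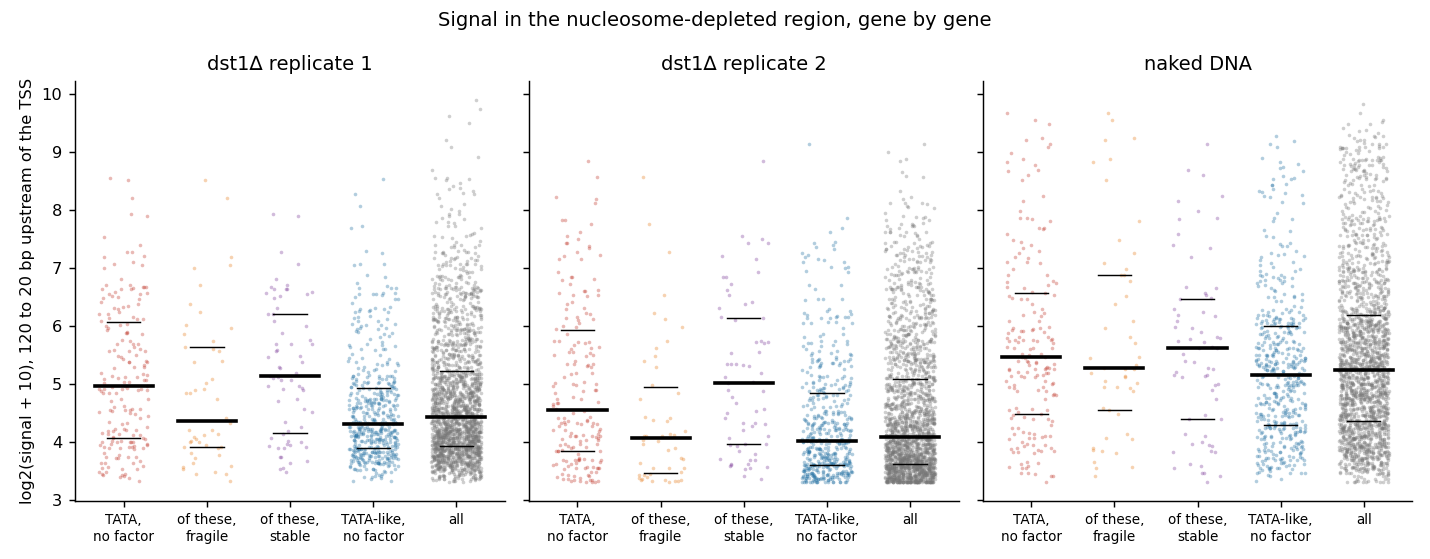
Signal in the NDR window as log2(signal + 10), 1 point per gene, for the TATA genes without a listed factor, those of them in the fragile and the stable list, the TATA-like genes and all genes. Thick lines are medians and thin lines quartiles, and the TATA genes had higher medians than the TATA-like genes in all 3 libraries.

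Naked DNA had more signal in the NDR than *dst1∆* chromatin in most of the TATA genes. Both replicates were below naked DNA in 108 of 186 genes (58.1%) and both above it in 59 (31.7%), against 67.1% and 21.9% of all genes. By limma on log2(signal + 10), with 1 residual degree of freedom and a spread shared over genes, 47 of the 186 genes (25.3%) were lower in *dst1∆* at an adjusted p under 0.05 and 4 (2.15%) were higher, against 28.6% and 1.83% of all 1971 genes. The share of TATA genes called was near that of all genes in both directions. A log2 difference above 1 in both replicates was seen in 19 of the 186 genes (10.2%, against 6.19% of all genes), and one below −1 in both in 70 (37.6%, against 37.3%). The calls depended on the processing: none was made among any genes with a pseudocount of 1, without a trend of the spread on the level, or with 1 bp counted at the fragment centre, where 52, 75 and 62 of the 186 genes and 598, 771 and 799 of all genes had an unadjusted p under 0.05. The genes called lower had 0.0387 to 52.5 in replicate 1 (median 6.29), 0 to 13.8 in replicate 2 (median 2.87), and 9.77 to 739 in naked DNA (median 62.7).

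Among the genes called lower were several of respiration, a group of 8 chosen for role and described here whole. *SDH2* and *SDH3* encode subunits of succinate dehydrogenase. *SDH2* had 52.5 and 1.82 in *dst1∆* and 739 in naked DNA, the highest naked DNA signal of the genes called lower, with a log2 difference of −4.79 ± 1.18 (SE, limma adjusted p = 0.026). *SDH3* had 7.71 and 3.17 in *dst1∆* and 377 in naked DNA (−4.66 ± 0.67, limma adjusted p = 0.013). *CYC7*, which encodes a minor isoform of cytochrome c, had 11.3 and 7.5 in *dst1∆* and 445 in naked DNA (−4.56 ± 0.74, limma adjusted p = 0.013). *HAP3*, a subunit of the activator of respiratory genes, had 13.4 and 1.28 in *dst1∆* and 196 in naked DNA (−3.66 ± 0.69, limma adjusted p = 0.015). In these 4 genes both replicates lay far below naked DNA. Beside these 4 of 8 genes, 25.3% of the 186 genes and 28.6% of all genes were called lower. *OM45*, a protein of the mitochondrial outer membrane, and *QCR10*, a subunit of the cytochrome bc1 complex, were not called (64.4 and 73.5 in *dst1∆* and 224 in naked DNA; 24.5 and 15.6 in *dst1∆* and 68.5 in naked DNA). *COX17*, a copper chaperone for cytochrome oxidase, had low signal in all libraries (2.09 and 0.606 in *dst1∆* and 4.47 in naked DNA). *CYB2* went the other way, with 90.1 and 451 in *dst1∆* and 44.6 in naked DNA, but its replicates differed widely and it was not called (1.97 ± 1.26, limma adjusted p = 0.26).

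Of the 8 genes of glucose response and storage carbohydrate, 6 were above the median NDR signal of all genes in each *dst1∆* replicate. Of the 186 genes, 65.1% and 66.1% were above it. *GLC3* had 138 and 291 in *dst1∆* and 44.0 in naked DNA, and *MIG2* had 137 and 64.8 in *dst1∆* and 24.9 in naked DNA. Both replicates were above naked DNA in these genes, and neither gene was called (limma adjusted p = 0.20 for each). *HXT4* had 29.0 and 162 in *dst1∆* and no fragment in naked DNA, against 132 fragments in the *dst1∆* replicates together. At a floor of 3 fragments this was at least 33.6-fold higher, and limma gave an adjusted p of 0.051. *GSY1*, a glycogen synthase, was high in all libraries, with 366 and 267 in *dst1∆* and 534 in naked DNA. *GLG2*, which starts glycogen chains, had 31.5 and 30.8 in *dst1∆* and 78.0 in naked DNA, and *PIG2*, a targeting subunit of the glycogen phosphatase, had 29.5 and 42.3 in *dst1∆* and 65.8 in naked DNA. *NTH2*, a trehalase gene, was the only one of the 8 called, with 2.54 and 4.44 in *dst1∆* and 85.8 in naked DNA (limma adjusted p = 0.013). No *dst1∆* fragment was centred in its window against 83 of naked DNA, at least 36.2-fold lower at the same floor. *PFK26*, a 6-phosphofructo-2-kinase, had 0.930 and 0.157 in *dst1∆* and 5.00 in naked DNA.

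Of the galactose genes, *GAL1*, *GAL2* and *GAL7* are repressed in glucose medium. *GAL1*, the galactokinase (Watson strand of chromosome 2, TSS at 278856 of sacCer2), had 127 and 218 in *dst1∆* and 44.1 in naked DNA. The start listed for *GAL7*, the transferase that follows it in the pathway (Crick strand of chromosome 2, TSS at 278428), had 60.04 and 217 in *dst1∆* and 38.6 in naked DNA. This start lies 428 bp from that of *GAL1*, and the listed transcript is 4249 bp long, with *GAL10* between *GAL7* and *GAL1* in the RefSeq order, so both windows belong to 1 intergenic region and are not separate promoters. *GAL2*, the galactose permease (Watson strand of chromosome 12, TSS at 290065), had 83.7 and 162 in *dst1∆* and 53.1 in naked DNA. In these 3 windows both replicates were above naked DNA, with replicate 2 well above replicate 1, and none was called (limma adjusted p of 0.23, 0.35 and 0.45). *GAL80*, which encodes the inhibitor of the activator Gal4 (Watson strand of chromosome 13, TSS at 171529), lay below naked DNA, with 16.2 and 12.7 in *dst1∆* and 28.6 in naked DNA (limma adjusted p = 0.32). A nucleosome was called in both replicates in each of the 3 windows and in neither replicate in that of the inhibitor.

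Of the 6 stress genes, all were above the median NDR signal of all genes in each *dst1∆* replicate, and 3 were above it in naked DNA. The shares of the 186 genes above it were 65.1% and 66.1% in *dst1∆* and 58.1% in naked DNA. *HSP30*, a plasma membrane heat shock protein, was called higher, with 84.5 and 103 in *dst1∆* and 4.97 in naked DNA (2.79 ± 0.73, limma adjusted p = 0.031). The windows held 55 fragments in each replicate and 4 in naked DNA. *RGI1* was called lower, with 32.2 and 11.7 in *dst1∆* and 463 in naked DNA (−3.97 ± 0.90, limma adjusted p = 0.020). *GRE1* and the methylglyoxal reductase gene *GRE2* had both replicates above naked DNA without a call (91.6 and 102 in *dst1∆* and 51.4 in naked DNA; 55.1 and 59.9 in *dst1∆* and 20.8 in naked DNA). *RTC3* had 89.6 and 30.6 in *dst1∆* and 220 in naked DNA. Both replicates thus lay below naked DNA over the window, although a nucleosome was called in it in each. A call needs only a local maximum of sufficient height after subtraction. For *GLO1*, a glyoxalase, naked DNA (24.97) lay between the replicates (20.3 and 43.8).

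The other 3 genes called higher in the NDR had little naked DNA. *YKL107W* had 78.7 and 86.9 in *dst1∆* and 7.80 in naked DNA (2.38 ± 0.72, limma adjusted p = 0.046). *KRE29*, a subunit of the Smc5-Smc6 complex, had 13.9 and 21.3 in *dst1∆* and 0.979 in naked DNA (limma adjusted p = 0.042), from 15 *dst1∆* fragments in all and none of naked DNA, at least 3.82-fold higher at a floor of 3. *EMA19* had 23.7 and 19.6 in *dst1∆* and 1.77 in naked DNA (limma adjusted p = 0.040). Its naked DNA window held 2 fragments, so no fold is given.

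The 25 remaining genes of the chosen roles held 4 calls, all lower in *dst1∆*. Of the 186 genes 25.3%, and of all genes 28.6%, were called lower. Among 9 genes of amino acids and nitrogen, *CYS3*, which encodes cystathionine gamma-lyase, was the only call, with 0.0387 and 0.247 in *dst1∆* and 28.6 in naked DNA (limma adjusted p = 0.013). None of its *dst1∆* fragments was centred in the window against 27 of naked DNA, at least 11.8-fold lower at a floor of 3. Among 3 metal transport and response genes, the zinc transporter gene *ZRT1* was called, with 16.8 and 9.54 in *dst1∆* and 85.1 in naked DNA (−2.06 ± 0.60, limma adjusted p = 0.042). Among 6 genes of peroxisomes and fatty acids, the acyl-CoA synthetase gene *FAA2* had 51.1 and 8.73 in *dst1∆* and 498 in naked DNA (−3.91 ± 1.04, limma adjusted p = 0.032). *PEX11*, which acts in peroxisome division, had 6.22 and 5.59 in *dst1∆* and 45.5 in naked DNA (−1.81 ± 0.43, limma adjusted p = 0.023). The 7 cell wall genes had no call. Of these, *HPF1* had 234 and 133 in *dst1∆* and 183 in naked DNA, and *TIR1*, a mannoprotein, had 60.5 and 85.6 in *dst1∆* and 30.5 in naked DNA.

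**Figure D3:**
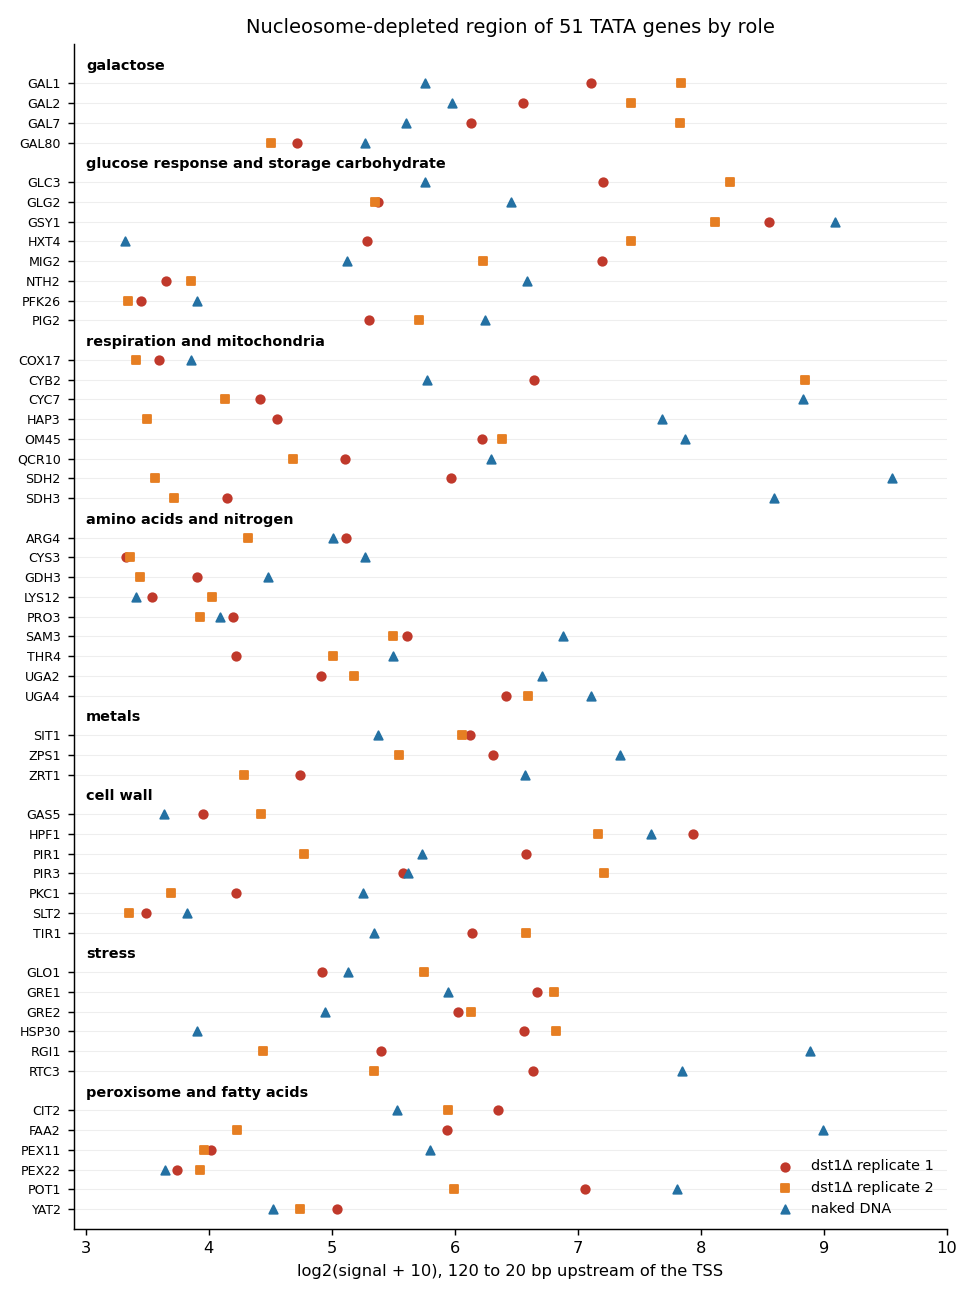
Signal in the NDR window as log2(signal + 10) of 51 TATA genes grouped by role, with a point for each *dst1∆* replicate and for naked DNA. *SDH3*, *CYC7*, *HAP3*, *RGI1* and *FAA2* have both replicates far left of naked DNA, and *GAL1*, *GLC3*, *HXT4* and *HSP30* have both to the right of it.

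The ends of the range show how widely the genes varied. They were picked on the *dst1∆* signal, so their differences from naked DNA follow in part from the choice. The highest mean NDR signals in *dst1∆* were those of *PRB1*, the vacuolar protease B (358 and 369 in *dst1∆* and 584 in naked DNA), and of *GSY1*, *CYB2* and *GLC3*, followed by *RCN1*, a calcineurin inhibitor (228 and 171 in *dst1∆* and 293 in naked DNA). *PRB1*, *GSY1* and *RCN1* were thus high in naked DNA as well and lay below it in both replicates, whereas *CYB2* and *GLC3* lay above it. The lowest were those of *CYS3*, *PET18* (0.407 and 0 in *dst1∆* and 18.0 in naked DNA), *LAA2* (0.562 and 0 in *dst1∆* and 9.77 in naked DNA), *PFK26* and *SLT2*, the kinase of the cell wall pathway (1.22 and 0.202 in *dst1∆* and 4.16 in naked DNA). *PET18* and *LAA2* were called lower (limma adjusted p of 0.013 and 0.020).

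In the window of the −1 nucleosome, the signal of the TATA genes and of all genes differed little. The median was 55.9 and 63.9 in *dst1∆* and 46.9 in naked DNA, against 49.5, 53.9 and 40.7 in all genes, so that TATA genes were above all genes by 0.15 and 0.21 on the log2 scale in *dst1∆* and by 0.17 in naked DNA. TATA-like genes had 47.7 and 59.2 in *dst1∆* and 34.0 in naked DNA. Both replicates were above naked DNA in 71 of the 186 genes (38.2%, against 43.2% of all genes) and below it in 77 (41.4%, against 38.7%). A log2 difference above 1 in both replicates was seen in 32 genes (17.2%, against 14.7% of all genes), and one below −1 in both also in 32 (17.2%, against 15.6%). No gene of any kind was called (0% of all genes; limma adjusted p of at least 0.146), with 33 of the 186 genes and 339 of all genes at an unadjusted p under 0.05. Without a cap on repeated reads, 4 of the 186 genes and 27 of all genes were called, and over 30 kb away from chromosome ends 4 and 22, all lower.

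The 5 genes with the highest naked DNA signal in this window were *MDS3* (571 and 516 in *dst1∆* and 610 in naked DNA), *MXR1*, a methionine sulfoxide reductase (289 and 164 in *dst1∆* and 557 in naked DNA), *OM45* (413 and 269 in *dst1∆* and 542 in naked DNA), *PRB1* (374 and 187 in *dst1∆* and 506 in naked DNA) and *CPP1* (225 and 254 in *dst1∆* and 471 in naked DNA). In all 5 the chromatin was also above the genome mean of 100, and in all 5 it was below naked DNA. The 5 lowest in naked DNA were *PEX22* (16.5 and 40.4 in *dst1∆* and 0.663 in naked DNA), *FRT2* (2.14 and 0 in *dst1∆* and 1.65 in naked DNA), *HXT4* (34.7 and 121 in *dst1∆* and 2.20 in naked DNA), *MCH2* (30.1 and 33.5 in *dst1∆* and 2.71 in naked DNA) and *YNL195C* (29.1 and 44.7 in *dst1∆* and 3.25 in naked DNA). Except in *FRT2*, *dst1∆* chromatin held signal there where naked DNA had almost none. Both sets were picked on the naked DNA signal, so the direction of their differences from it follows in part from the choice.

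The largest differences from naked DNA with the same direction in both replicates were upward in *CAP2*, a subunit of actin capping protein (118 and 83.5 in *dst1∆* and 7.29 in naked DNA), *HXT4*, *SUT1* (106 and 149.4 in *dst1∆* and 15.6 in naked DNA), *CAK1* (50.9 and 128 in *dst1∆* and 7.81 in naked DNA) and *GAS5* (57.4 and 114 in *dst1∆* and 9.23 in naked DNA). They were downward in *CYC7* (14.0 and 4.47 in *dst1∆* and 283 in naked DNA), *RIB1*, which encodes an enzyme of riboflavin synthesis (3.38 and 0 in *dst1∆* and 153 in naked DNA), *SDH2* (123 and 13.2 in *dst1∆* and 447 in naked DNA), *PCL7* (34.0 and 26.2 in *dst1∆* and 293 in naked DNA) and *SAM3*, the S-adenosylmethionine permease (122 and 9.79 in *dst1∆* and 366 in naked DNA). All 5 downward genes were in the fragile list. In *SDH2* and *SAM3* the replicates were far apart. The widest gaps between replicates were those of *YEH1* (132 and 0.711 in *dst1∆* and 128 in naked DNA), *PHM8* (119 and 8.06 in *dst1∆* and 217 in naked DNA) and *SAM3*. Each of these 3 genes, all in the fragile list, was above 100 in replicate 1 and in naked DNA and below 10 in replicate 2.

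**Figure D4:**
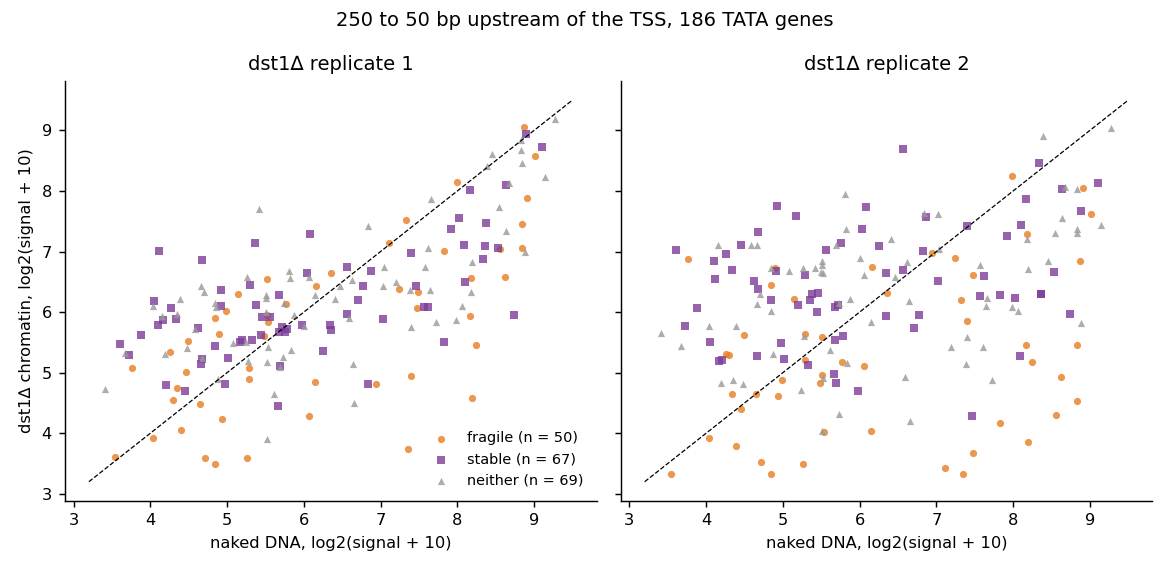
Signal of the −1 window as log2(signal + 10) in each *dst1∆* replicate against naked DNA, 1 point per TATA gene, in the fragile list (50), the stable list (67) or neither (69). The dashed line marks equal values, and the points of replicate 1 follow it more closely than those of replicate 2 (r = 0.65 and r = 0.30).

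The fragile and the stable list come from another study and divide the TATA genes without use of these libraries. Of the 186 genes, 50 were in the fragile list, 67 in the stable list and 69 in neither. The stable list was used in part and reached only chromosomes 7 to 16, and 57 of the 69 genes in neither list were on chromosomes 1 to 6. Fragile TATA genes had less signal in the −1 window of *dst1∆* than stable ones, with medians of 43.6 and 26.2 in fragile genes, against 51.9 and 73.8 in stable genes. The log2 difference, fragile minus stable, was −0.21 and −1.21 (−0.71 ± 0.71 over both replicates, SD, n = 2). It was about as large as the spread between the replicates. Naked DNA had the opposite order, with 50.8 in fragile genes and 42.8 in stable genes (0.20 on the log2 scale). On chromosomes 7 to 16, which both lists cover, the 27 fragile and 67 stable genes differed by −0.43 and −1.27 in *dst1∆*, and naked DNA by −0.24. The order in naked DNA thus turned on which chromosomes were counted. Both replicates were below naked DNA in 26 of the 50 fragile genes (52.0%) and in 24 of the 67 stable genes (35.8%), against 38.7% of all genes. Both were above it in 11 fragile genes (22%) and 32 stable genes (47.8%), against 43.2% of all genes. Less signal in this window need not be less signal of the −1 nucleosome itself, since the window overlaps the NDR window. In the mean profile after subtraction, the −1 peak lay at −234 and −241 bp in fragile genes, near the window's edge. It lay at −215 and −212 bp in stable genes. The peak reached 55.5 and 70.1 in fragile genes and 46.5 and 98.4 in stable genes, so the order changed between replicates.

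The median NDR signal was lower in fragile genes in both replicates. It was 10.7 and 6.90 in fragile genes and 25.4 and 22.4 in stable genes, a log2 difference of −0.77 and −0.94 (−0.86 ± 0.12, SD, n = 2), larger than the spread between the replicates. Single genes overlapped widely, with quartiles of 5.18 to 39.7 and 1.04 to 21.0 in fragile genes, against 7.98 to 64.2 and 5.68 to 60.9 in stable genes. Naked DNA differed less, with 28.6 in fragile genes and 39.1 in stable genes (−0.35). On chromosomes 7 to 16 the differences were −0.82 and −0.97 in *dst1∆* and −0.59 in naked DNA. By limma, 20 of the 50 fragile genes (40%) were lower in *dst1∆* than in naked DNA and none higher, against 12 lower (17.9%) and 1 higher of the 67 stable genes, where 28.6% and 1.83% of all genes were called. The difference between the lists itself was not tested. Fragile TATA-like genes were below stable TATA-like genes too (−0.38 and −0.53 on the log2 scale), with medians of 7.25 and 3.28 in fragile genes and 12.5 and 9.16 in stable genes.

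**Figure D5:**
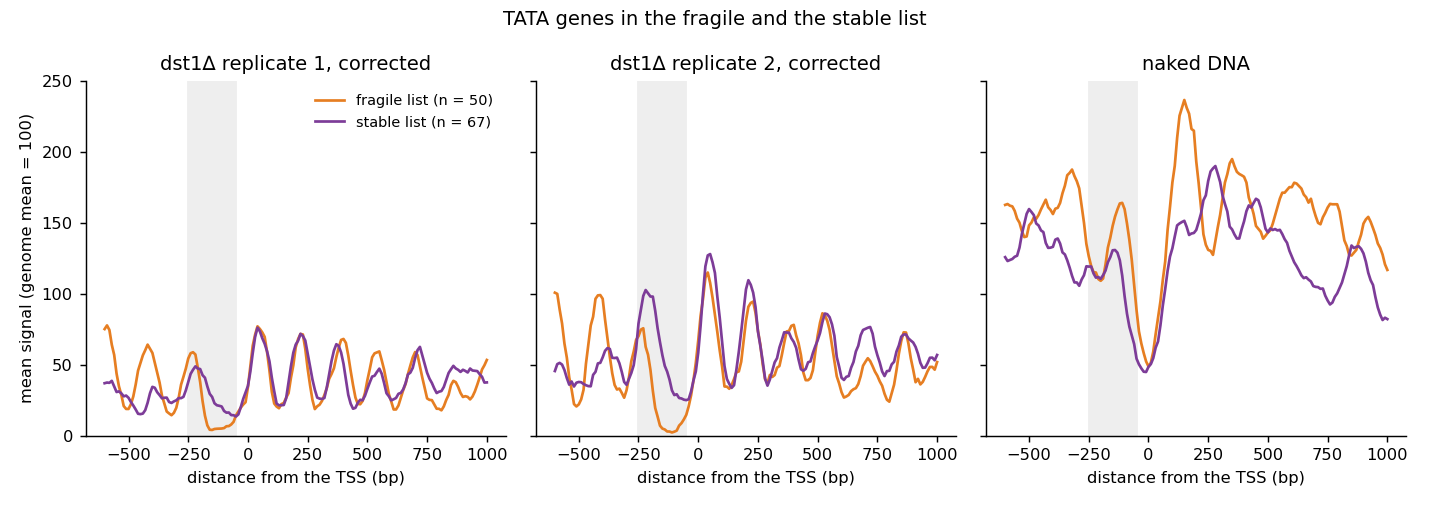
Mean signal (genome mean of 100) against the distance from the TSS in bp for the TATA genes in the fragile list (50) and in the stable list (67), in the *dst1∆* replicates after subtraction of naked DNA and in naked DNA. Fragile genes had a wide trough in both replicates, with minima of 4.85 and 3.03 at −135 and −114 bp. Stable genes had minima of 15.3 and 26.3 at −61 and −60 bp. The shaded −1 window overlaps the NDR window.

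The −1 nucleosome was taken as the nearest one called upstream of the +1, so it could lie in the NDR window. Where a nearer one went uncalled, the next one upstream was taken. The distance between the −1 and the +1 nucleosome was longer in fragile genes. Its median was 300 bp in fragile genes in each replicate (40 and 41 genes with both nucleosomes), against 250 bp in stable genes in each replicate (55 and 54 genes). The quartiles were 280 to 403 bp and 280 to 440 bp in fragile genes, and 190 to 265 bp and 205 to 278 bp in stable genes, so that those of the lists did not overlap. TATA-like genes had medians of 300 bp in each replicate when fragile, against 240 and 250 bp when stable. Over the 147 and 134 TATA genes with both nucleosomes, the median distance was 260 and 270 bp, as in TATA-like genes. A nucleosome in the NDR window was called in 5 fragile genes (10.0%) in each replicate and in 15 stable genes (22.4%) in each, against 8.83% and 8.57% of all genes.

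At the start of the gene, the *dst1∆* signal of TATA genes did not stand apart from that of all genes. In the first 150 bp its median was 97.0 and 118, against 94.3 and 115 in all genes and 96.8 and 124 in TATA-like genes. Naked DNA was higher in TATA genes, with 57.1, against 44.2 in all genes and 42.6 in TATA-like genes. Both replicates were above naked DNA in 107 of the 186 genes (57.5%), against 68.7% of all genes and 71.5% of TATA-like genes. Both were below it in 50 (26.9%, against 18.3% of all genes). A log2 difference above 1 in both replicates was seen in 60 genes (32.3%, against 34.7% of all genes), and one below −1 in both in 17 (9.14%, against 4.82%). None of the 186 genes was called higher or lower by limma (0% and 0.152% of all genes), with 53 of them and 544 of all genes at an unadjusted p under 0.05.

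Over the first 1000 bp of the gene, cut at the polyadenylation site, the median was 111 and 124 in *dst1∆* and 117 in naked DNA. All genes had 98.2 and 114 in *dst1∆* and 95.05 in naked DNA. TATA genes were above TATA-like genes by 0.18 and 0.08 on the log2 scale in *dst1∆* and by 0.43 in naked DNA. Both replicates were above naked DNA in 69 of the 186 genes (37.1%, against 47% of all genes) and below it in 70 (37.6%, against 35.8%). A log2 difference above 1 in both replicates was seen in 15 genes (8.06%, against 8.57% of all genes), and one below −1 in both in 3 (1.61%, against 1.17%). At a genome mean of 100, 8 of the 186 genes (4.3%) were called higher in *dst1∆* and 1 (0.538%) lower, against 6.75% and 0.558% of all genes. These directions rest on the scaling. With the libraries scaled to a genome median of 100, which moved the median log2 difference of all genes by −0.82, 1 of the 186 genes was called higher and 49 lower, against 31 higher and 488 lower of all genes. The 8 genes had little naked DNA signal, 12.1 to 33.0, and *dst1∆* signals of 45.2 to 124. In this window the SE of limma came from the spread shared over genes, not from a gene's own replicates. With 1 read per strand position none of the 186 genes and none of all genes was called (25 and 293 at an unadjusted p under 0.05), and without a cap on repeated reads 1 of the 186 and 39 of all genes. The largest difference was that of *MRPL31*, a mitochondrial ribosomal protein, with 56.2 and 69.0 in *dst1∆* and 12.1 in naked DNA (1.71 ± 0.37, limma adjusted p = 0.00068). The others were *SKM1*, *HXT4*, *TPM2*, *PCI8*, *QCR10*, *OSI1* and *LSM2*. *HAP3* was the gene called lower, with 172 and 74.7 in *dst1∆* and 392.2 in naked DNA (−1.69 ± 0.48, limma adjusted p = 0.013).

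The nucleosome array of the gene body was less sharp in TATA genes than in TATA-like genes. In the mean profile after subtraction, the first 4 peaks were 2.38 and 2.22 times as high as the troughs between them, against 4.83 and 4.46 times in TATA-like genes and 3.78 and 3.76 times in all genes. Before subtraction the ratios were 1.499 and 1.64, against 2.42 and 2.79 in TATA-like genes. The peaks of the profile before subtraction were 160.8 and 161.1 bp apart, against 165.4 and 165.8 bp in TATA-like genes, and after subtraction they were 165.4 and 164.1 bp apart, against 167.5 and 166.7 bp. The corrected +1 peak reached 68.1 and 109 in TATA genes and 103 and 145 in TATA-like genes.

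Single nucleosomes showed a smaller difference. The TATA genes held 891 and 831 nucleosomes in the first 1000 bp, or 5.12 and 4.77 per kb, against 5.32 and 4.91 per kb in TATA-like genes. The fuzziness score, which is the SD of position of the signal within 100 bp of the peak, averaged 27.6 and 29.1 in TATA genes and 26.8 and 27.9 in TATA-like genes. The mean was higher in TATA genes in each replicate, by less than the difference between the replicates. In TATA genes 11.4% and 15.6% of the nucleosomes scored above 40, against 7.81% and 10.6% in TATA-like genes and 9.99% and 11.8% in all genes. TATA genes with a listed factor had 16.6% and 17.3% above 40 and mean scores of 28.8 and 29.5. They held 4.35 and 4.12 nucleosomes per kb. These values lay further from those of TATA-like genes, so the difference was not particular to TATA genes without a listed factor. Fragile and stable TATA genes had mean scores of 27.7 and 28.1 in fragile genes and 27.5 and 29.7 in stable genes, so their order changed between replicates.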

How the data were processed

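Libraries of *dst1∆* chromatin (2) and naked DNA (1) were used. Per the study's methods, the authors mapped unambiguous reads with GEM on the sacCer2 build. The other files are as the authors deposited them, with a start, an end and a strand for each read and repeated reads left in. For GEM, the version was not given in the sources used here. The genes, the lists and the roles were chosen with earlier results of these data known. Sites and lists come from the study's supplementary tables, of which only a part was used. Symbols come from the RefSeq table of assembly R64.

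To limit repeated reads, each strand position kept no more reads than a Poisson probability of 1e-10 allows, which left 70.5%, 72.5% and 65.2% of the reads of the *dst1∆* replicates and naked DNA. A fragment's centre was taken as 73 bp downstream of where its read began, and an 81-bp box around it entered the signal, whose genome mean was set to 100. Repeated reads carry no molecular identifiers, so counting intervals cover counting error only. The 95% Poisson interval of the median gene in the NDR window of replicate 2 ran from 72.8% below to 156% above its value. Nucleosomes were sought after naked DNA had been subtracted and negative values set to 0, as maxima of the smoothed signal (SD 20 bp) with a height of 20 or more and a distance of 100 bp or more.

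Windows were compared with limma (trend) on log2(signal + 10), *dst1∆* (n = 2) against naked DNA (n = 1), 2-sided, with Benjamini-Hochberg adjustment over 1971 genes. The lone naked DNA library was assumed to vary like *dst1∆*. In the +1 and gene windows limma used the spread shared over genes alone, so an SE there does not reflect a gene's own replicates. On simulated data, changes of 4-fold were found in 0% of genes in the −1, NDR and +1 windows and in 85.0% in the gene window. Since calls were made in the NDR window of the real libraries, the simulation does not show what the test can find there. The tolerance set for the simulated estimates was widened after the NDR window missed it, with a median of 0.787 of the true log2 change. Named genes were the role lists, the 5 highest and 5 lowest in naked DNA and in the log2 difference (same direction in both replicates) of the −1 window and in *dst1∆* in the NDR, and the 3 with the widest gap between replicates. Genes called higher in the NDR, genes called in the gene window and examples of NDR nucleosomes were added after their values were seen. Alternatives were the cap, scaling, counted width, pseudocount, trend, filters on genes, subtraction, peak height and each replicate left out. Software was limma 3.58.1 in R 4.3.3, with Python 3.11.15 (pandas 2.3.3, numpy 2.4.6, scipy 1.17.1).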

Additional observations from a re-analysis of the deposited data

How the results depend on the processing

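No paired analysis was possible because naked DNA is 1 library and shares no replicate pairs with *dst1∆*. The counts of calls by limma depended on the settings, and the cause was not tested. In the −1 window, where no gene was called, 4 TATA genes and 27 of all genes were called without a cap on repeated reads, and 4 and 22 over 30 kb away from chromosome ends, all lower. In the NDR window (51 TATA genes and 600 of all genes called), the counts were 0 and 0 with 1 bp at the fragment centre, with a pseudocount of 1 and without the trend. They were 33 (5 higher) and 335 (23 higher) with at least 20 fragments, and 12 (4 higher) and 155 (20 higher) among genes with no other listed site upstream, where fewer genes were tested. Scaling to the genome median gave 949 of all genes (31 higher).

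In the +1 window (0 TATA genes and 3 of all genes called, lower), the counts were 17 and 223 with a pseudocount of 1 (15 and 198 higher), 3 and 36 without the trend (1 and 24 higher), 2 and 27 with at least 20 fragments (1 and 20 higher), 2 and 41 with no other site upstream (1 and 36 higher), 2 and 15 with 1 bp (1 and 5 higher) and 8 and 53 with median scaling (1 and 12 higher). Of all genes, 0 were called without a cap, with 1 read per position or with a pseudocount of 30. In the gene window (9 and 144), the counts were 1 and 39 without a cap, 0 and 0 with 1 read per position, 50 and 519 with median scaling (1 and 31 higher), 3 and 43 with no other site upstream, and for TATA genes 14 with a pseudocount of 1 and 5 with a pseudocount of 30.

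The share of TATA genes above the median of all genes in the +1 window of *dst1∆*, 50.5%, was 47.8% without a cap, 49.5% with 1 read per position and 48.5% with no other site upstream. The share of fragile TATA genes above it in naked DNA of the −1 window, 52.0%, was 48.9% away from chromosome ends and 44.4% on chromosomes 7 to 16, and their difference from stable ones, 0.20, was −0.18 away from chromosome ends. The median log2 difference of TATA genes from naked DNA in the NDR, −0.60, was 0.018 with no other site upstream, and −0.74 over 179 genes with those at 0 set to their bound. In the +1 window, 0.65 became −0.090 with median scaling. In the gene window, 0.0062 became −0.037 with 1 read per position, −0.82 with median scaling, −0.10 with no other site upstream and −0.025 to 0.026 with a *dst1∆* replicate left out. Median scaling moved the median of all genes by −0.75 in the −1, −0.87 in the NDR and −0.70 in the +1 window.

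Nucleosomes per TATA gene, 4.72 with the replicates pooled, were 5.46 without subtraction, 5.45 at a weight of 0.5, 3.83 at a height of 50, 4.18 with 1 read per position, and 4.47 to 4.79 with a replicate left out. The fuzziness score, 28.3, was 42.1 without subtraction and 33.1 at a weight of 0.5. The distance between the −1 and +1 nucleosomes, 260 bp, was 270 bp at a height of 50 and with 1 read per position, and 260 to 270 bp with a replicate left out. The NDR window held no fragment in 15 and 43 of the 186 genes in the *dst1∆* replicates and in 6 in naked DNA.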
